A study of Saccharomyces cerevisiae with 6 samples.

Results

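The plasma membrane of budding yeast (Saccharomyces cerevisiae) carries short furrows, and the 8 genes described here encode the proteins that shape or fill them. They are FHN1 (YGR131W), NCE102 (YPR149W), PIL1 (YGR086C), LSP1 (YPL004C), SUR7 (YML052W), FMP45 (YDL222C), YNL194C and PUN1 (YLR414C), 8 of the 6282 rows of the deposited table. The genes were chosen by family with earlier results of these data known. The pairing of FHN1 with NCE102 was made with the measured ratios of these arrays in view. Their ratios are therefore given as a description, and no p-value is printed for them. All 8 had at least 2 values in each strain and were among the 6208 genes that entered the fit.

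Each of 6 2-colour arrays compared aerobic and hypoxic cultures of a single strain, 3 arrays for wild type and 3 for a strain with HAP1 deleted. HAP1 encodes a transcription factor that responds to heme, whose synthesis needs oxygen. Replicates were independent cultures from different days, per the series description. The sources used here do not give the rest of the genotype, the oxygen level, the medium or the length of hypoxia. Every value below is a log2 ratio of hypoxic over aerobic poly(A) RNA, so 1 means 2-fold more in hypoxia, unless a difference of such ratios is named. The ratio compares shares of RNA in a bulk culture. Fewer cells that carry a transcript and less of it per cell cannot be told apart. No array compared the strains with each other. A ratio that is higher in either strain can come from more hypoxic or from less aerobic RNA. These cannot be told apart either.

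Beneath each furrow lies an eisosome, a scaffold of the related BAR-domain proteins Pil1 and Lsp1, which bend the membrane. Nce102, a protein with several membrane spans, is needed for the normal furrow pattern and acts in sphingolipid sensing. Fhn1 is its close relative and can replace it in part. Sur7 marks the furrow and heads a family of membrane proteins with Fmp45 and Ynl194c, and Pun1 is a more distant relative tied to cell wall integrity and nitrogen stress. Permeases such as the arginine transporter Can1 gather in the furrow.

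Across genes, r was 0.412 to 0.539 between wild-type arrays, 0.329 to 0.575 between deletion arrays and 0.0971 to 0.538 between arrays of different strains. The HAP1 spot read 0.84, 0.50 and 1.10 in wild type and 0.47, 0.56 and 0.72 in the deletion strain. With the same strain in both channels, this does not check the deletion. Of 6 textbook hypoxic genes read as markers of direction, HEM13 (heme synthesis) was above 0 on all arrays, at 2.13 to 3.68 in wild type and 1.88 to 2.12 in the deletion strain. TIR1 was also above 0 on all arrays, at 1.68 to 3.56 in wild type and 1.19 to 2.04 in the deletion strain. So was COX5B, at 0.68 to 3.55 and 0.31 to 1.22. HMG2 lay on both sides of 0 in both strains. ANB1 and AAC3 were below 0 on every array of a strain. ANB1, a translation factor gene with a near-identical copy, read -1.43, -0.52 and -1.16 in wild type, and AAC3, an ADP/ATP carrier gene, read -0.39, -0.69 and -0.70 in the deletion strain. Wild-type replicate 1 stood apart for several of the furrow genes, and values without it are given beside them. It was the highest of the 3 wild-type arrays for 6 of the 8 genes, against 37.3% of all genes with 3 wild-type values.

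FHN1 rose in hypoxia in both strains, by 2.41-fold in wild type and by 18.8-fold in the deletion strain. On the wild-type arrays it read 0.90, 1.58 and 1.33 for replicates 1 to 3, a mean of 1.27 ± 0.35 (SD, n = 3). On the hap1 deletion arrays it read 3.80, 4.61 and 4.29, a mean of 4.23 ± 0.41 (SD, n = 3). All 6 values lay above 0, and the lowest in the deletion strain was more than 2 units above the highest in wild type. The strain means differed by 2.97 on the log2 scale (limma SE 0.32), which is 7.82-fold. FHN1 exceeded 88.2% to 96.7% of all genes on the wild-type arrays and 99.5% to 99.7% on the deletion arrays. By strain mean it ranked 210 of 6208 in wild type and 17 of 6208 in the deletion strain.

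Over all genes, 4.24% passed limma's test (adjusted p under 0.05) in wild type, 4.32% passed in the deletion strain and 0.354% passed for the difference between strains. An unadjusted p under 0.05 was reached by 24.1%, 24.7% and 7.97% of all genes in the same 3 comparisons. Of the 8 furrow genes, FHN1 alone passed in each of these comparisons, and the other 7 passed in none (2 had an unadjusted p under 0.05 in wild type and 0 elsewhere). These counts describe genes chosen with the same ratios in view and support nothing further. The call of FHN1 in the deletion strain held in all 13 alternative settings. In wild type it held in 5 of 13 settings. Among the others, it was lost without any 1 of the wild-type arrays, without hap1 deletion replicate 2 or 3, with a dye term, and with wild type fitted alone. The call for the difference held in 4 of 12 settings, and among the others it was lost when any 1 of the 6 arrays was left out and when arrays were scaled to equal spread, while its size stayed between 2.78 and 3.18.

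**Figure D1:**
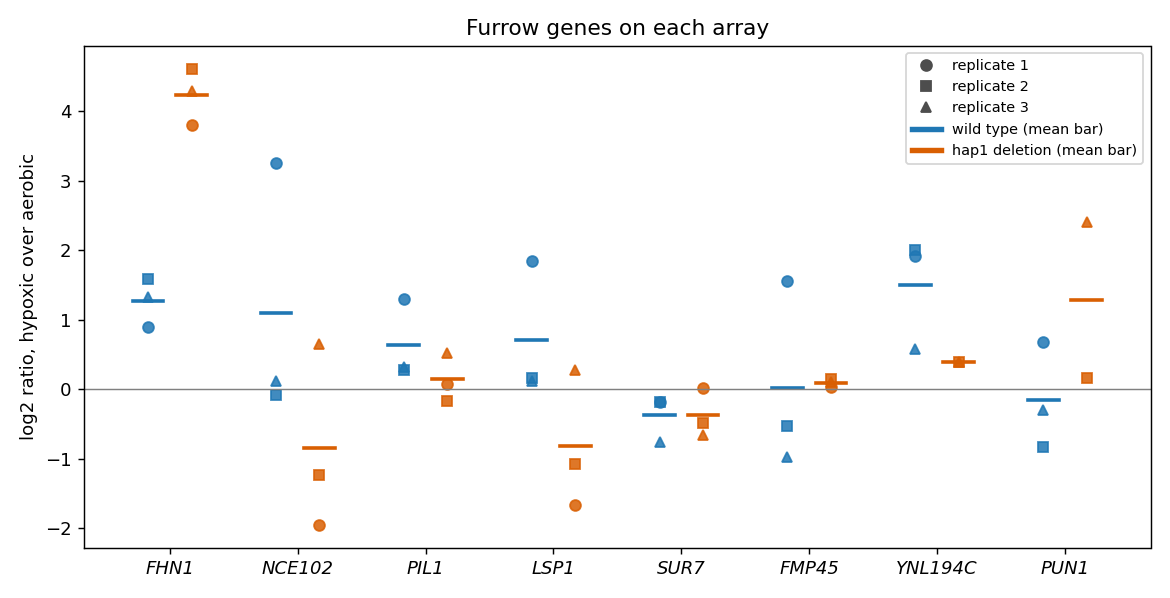
Log2 ratio of hypoxic over aerobic RNA (y axis) for the 8 furrow genes (x axis) on each of the 6 arrays. Points are single arrays with a marker shape per replicate, blue for wild type and orange for the hap1 deletion, and bars are strain means. FHN1 lies between 3.80 and 4.61 on the deletion arrays, above every wild-type value, while NCE102 and LSP1 reach their highest values on wild-type replicate 1.

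NCE102, the closest relative of FHN1, did not pass in either strain and varied widely between arrays of the same strain. It read 3.25, -0.09 and 0.13 in wild type (1.09 ± 1.87, SD, n = 3) and -1.95, -1.23 and 0.66 in the deletion strain (-0.84 ± 1.35, SD, n = 3). The strains overlapped, and 1 array in each strain had the opposite sign to the other arrays. Its spread in wild type was larger than that of 98.5% of the genes tested. Without wild-type replicate 1 its wild-type mean was 0.02. The coding lengths of the pair in the RefSeq gene table are near equal, 525 bases for FHN1 and 522 for NCE102.

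Set against each other on the same array, the ratio of FHN1 minus that of NCE102 was -2.35, 1.67 and 1.20 in wild type and 5.75, 5.84 and 3.64 in the deletion strain. In wild type the mean was 0.17 ± 2.20 (SD, n = 3), so the relatives did not differ beyond the spread between arrays, and without replicate 1 it was 1.44. In the deletion strain the mean was 5.08 ± 1.25 (SD, n = 3), which is 33.7-fold, with FHN1 ahead on all 3 arrays. The strain means of this contrast differed by 4.90. The pair was singled out for its response, so the contrast carries no test.

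**Figure D2:**
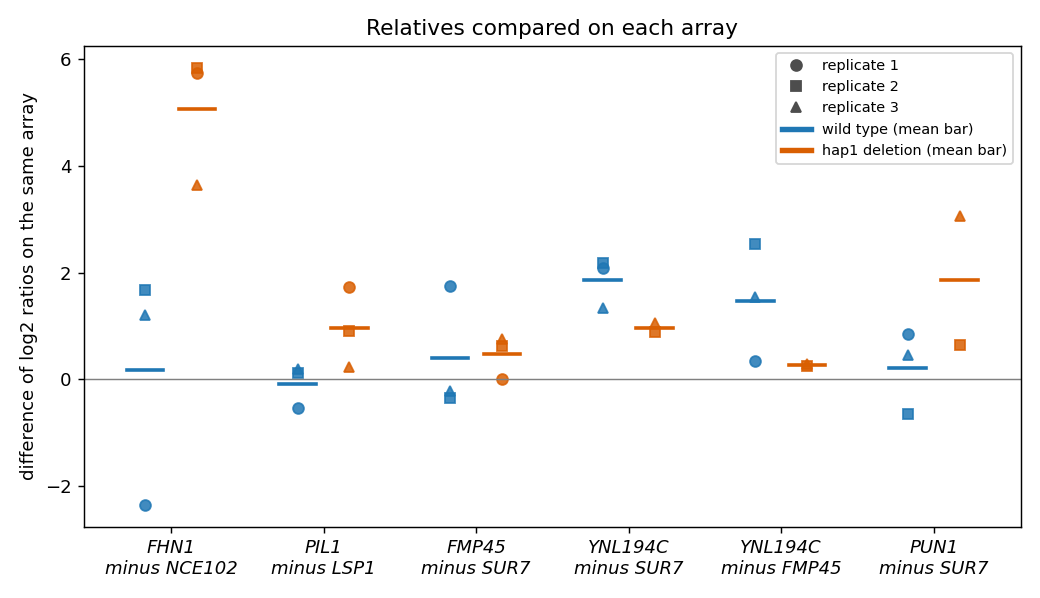
Difference between the log2 ratios of 2 related furrow genes on the same array (y axis) for 6 pairs (x axis). Points are single arrays with a marker shape per replicate, blue for wild type and orange for the hap1 deletion, and bars are strain means. FHN1 minus NCE102 lies at 3.64 or above on the deletion arrays and on both sides of 0 in wild type, while PIL1 minus LSP1 stays between -0.54 and 1.73.

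The scaffold genes PIL1 and LSP1 stayed closer together. PIL1, the main scaffold subunit, read 1.30, 0.28 and 0.32 in wild type (0.63 ± 0.58, SD, n = 3) and 0.08, -0.17 and 0.52 in the deletion strain (0.14 ± 0.35, SD, n = 3). Its strains overlapped, and without wild-type replicate 1 the wild-type mean was 0.30. LSP1, the second subunit, read 1.84, 0.16 and 0.13 in wild type (0.71 ± 0.98, SD, n = 3) and -1.66, -1.07 and 0.28 in the deletion strain (-0.82 ± 0.996, SD, n = 3). Here too the strains overlapped, through deletion replicate 3, and without wild-type replicate 1 the wild-type mean was 0.14.

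The differences PIL1 minus LSP1 were -0.54, 0.12 and 0.20 in wild type. In the deletion strain they were 1.73, 0.91 and 0.24, above 0 on all 3 arrays, with a mean of 0.96 ± 0.75 (SD, n = 3). Without deletion replicate 3, the deletion mean of LSP1 was -1.37 and that of NCE102 -1.59. Leaving out either other deletion array moved both means towards 0. They were -0.40 and -0.29 without replicate 1, and -0.69 and -0.65 without replicate 2.

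None of the SUR7 relatives passed in either strain or for the difference. SUR7 itself, the furrow marker, read -0.18, -0.18 and -0.76 in wild type (-0.37 ± 0.33, SD, n = 3) and 0.02, -0.48 and -0.66 in the deletion strain (-0.37 ± 0.35, SD, n = 3). These are almost equal means with overlapping arrays. FMP45 read 1.56, -0.53 and -0.97 in wild type (0.02 ± 1.36, SD, n = 3), with replicate 1 opposite in sign to the others and a mean of -0.75 without it. In the deletion strain FMP45 read 0.03, 0.15 and 0.10, a mean of 0.09 ± 0.06 (SD, n = 3).

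YNL194C, the third SUR7 relative, read 1.92, 1.997 and 0.57 in wild type (1.50 ± 0.80, SD, n = 3). In the deletion strain it had values on 2 arrays, 0.40 and 0.40. All 5 values lay above 0 and the strains did not overlap. Among the 8 furrow genes the lack of overlap held for YNL194C and FHN1, with the deletion strain lower for YNL194C and higher for FHN1. Of all genes tested, 16.3% had strains that did not overlap. That share mixes genes with 2 and 3 values per strain, and fewer values make overlap less likely. YNL194C ran ahead of SUR7 on each of the 5 arrays with both values, by 1.33 to 2.18 in wild type and by 0.88 and 1.06 in the deletion strain. Without replicate 1 its wild-type mean was 1.29.

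PUN1 read 0.67, -0.83 and -0.30 in wild type (-0.15 ± 0.76, SD, n = 3) and 0.16 and 2.40 on the 2 deletion arrays with a value (1.28 ± 1.58, SD, n = 2). The wild-type arrays lay on both sides of 0 with a mean of -0.565 without replicate 1, and the deletion mean came mostly from replicate 3. For PUN1 and YNL194C the value of deletion replicate 1, the array with the most missing values, was missing, so their deletion means use the other 2 arrays.

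Over the 7 genes other than FHN1 the median fitted ratio was 0.63 in wild type and 0.09 in the deletion strain, beside -0.04 and -0.06 over all genes tested. By array, the median of these 7 was 1.56, -0.09 and 0.13 in wild type and 0.02, -0.17 and 0.40 in the deletion strain. A list of 20 general stress genes, 19 of them with values, was read alongside, since stress genes may differ between cultures. Its medians were 2.504, 1.26 and 0.98 in wild type and -0.35, 0.56 and 2.27 in the deletion strain. The medians of the stress genes were thus highest on wild-type replicate 1 and lowest on deletion replicate 1, as was NCE102. They were higher on deletion replicate 3 than on the other deletion arrays, as were NCE102 and LSP1. Not every gene of the stress list followed this order. FHN1 had its lowest value of each strain on replicate 1 and its highest on replicate 2. The part of the stress response in these values was not tested. Of the 19, GPH1 (glycogen phosphorylase) and GSY2 (glycogen synthase) rose in wild type (limma adjusted p = 0.0239 and 0.0430), and 17 did not pass, beside the 4.24% of all genes called. None passed in the deletion strain. An unadjusted p under 0.05 was reached by 12 of the 19 in wild type and by 3 in the deletion strain, beside 24.1% and 24.7% of all genes.

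**Figure D3:**
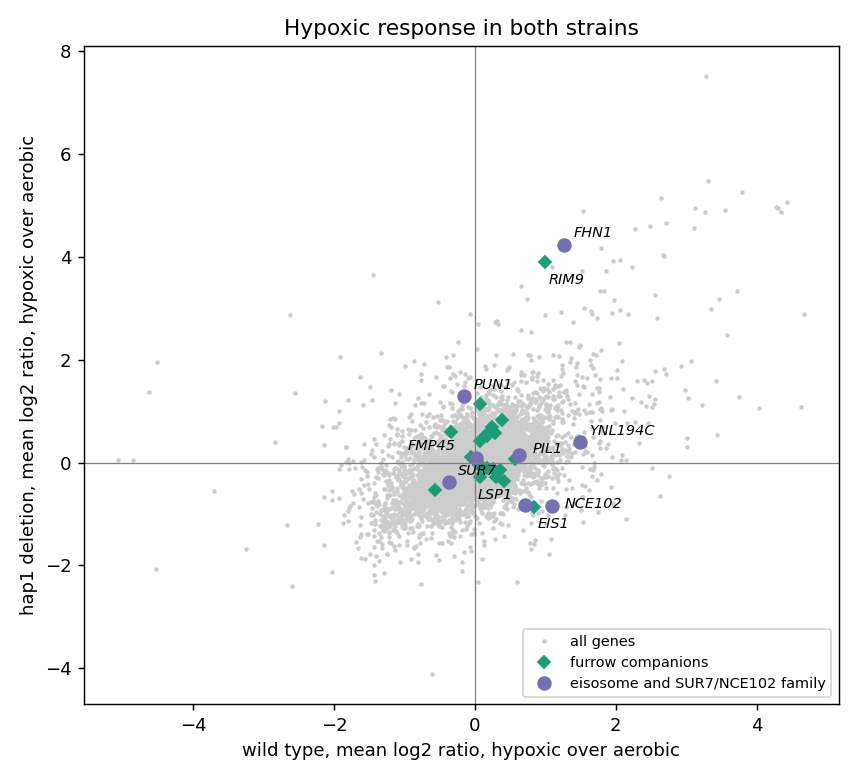
Mean log2 ratio of hypoxic over aerobic RNA in wild type (x axis) against the hap1 deletion strain (y axis). Grey points are all genes with values in both strains, purple circles the 8 furrow genes and green diamonds the 21 companion genes. FHN1 lies at 1.27 in wild type and 4.23 in the deletion strain, away from the other furrow genes, and NCE102, LSP1 and EIS1 lie together at the lower right.

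The wider furrow machinery was examined through 21 companion genes that are not among the 8. In limma's test none of them passed in wild type (2 had an unadjusted p under 0.05), in the deletion strain (8 under 0.05) or for the difference between strains (2 under 0.05), beside 4.24%, 4.32% and 0.354% of all genes called and 24.1%, 24.7% and 7.97% with an unadjusted p under 0.05. The count stayed at 0 in every alternative setting. The companions' median was 0.17 in wild type and 0.07 in the deletion strain, beside the same all-gene medians of -0.04 and -0.06. Of the 21, 6 had strains that did not overlap, beside 16.3% of all genes. They were EIS1, SLM1, YPK1, CAN1, MUP1 and DCV1, the last with values on only 2 deletion arrays.

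Among 10 genes of eisosome assembly and signalling, EIS1, a core eisosome component, had the highest mean in wild type and the lowest in the deletion strain. It read 1.58, 0.83 and 0.11 in wild type (0.84 ± 0.73, SD, n = 3) and -1.09, -1.31 and -0.18 in the deletion strain (-0.86 ± 0.60, SD, n = 3). All wild-type values lay above 0 and all deletion values below, yet the difference of -1.70 did not pass (limma adjusted p = 0.382). SEG1, which stabilises eisosomes ahead of Pil1, read 0.77, -0.21 and 0.15 in wild type and 0.53, 0.80 and 0.76 in the deletion strain. Its deletion mean of 0.70 ± 0.15 (SD, n = 3) did not pass (limma adjusted p = 0.116), and its relative SEG2 had -0.04 ± 0.28 there.

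PKH1, a kinase that phosphorylates Pil1 and Lsp1 and activates Ypk1, had the highest deletion mean of these 10, 0.83 ± 0.51 (SD, n = 3, limma adjusted p = 0.0875). Its relatives PKH2 (-0.28 ± 0.74, n = 2) and PKH3 (-0.35 ± 0.68) had means below 0 in the deletion strain. YPK1, the kinase that signals to sphingolipid synthesis, read 0.17 ± 0.08 in wild type and 0.56 ± 0.27 in the deletion strain. YPK2, its relative, had the lowest wild-type mean of the 10, -0.56 ± 0.32 (limma adjusted p = 0.292). The TORC2 adaptors SLM1 and SLM2 had means of 0.07 and 0.36 in wild type and 0.41 and -0.15 in the deletion strain.

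Among 5 furrow permeases, CAN1 read 0.25, 0.36 and 0.22 in wild type and 0.52, 0.80 and 0.41 in the deletion strain, above 0 on all 6 arrays. Its deletion mean of 0.58 ± 0.20 (SD, n = 3) did not pass (limma adjusted p = 0.0926). FUR4, the uracil permease, had the lowest wild-type mean (-0.34 ± 1.03) and the highest deletion mean (0.58 ± 0.31). The methionine permease MUP1 had the highest wild-type mean, 0.30 ± 0.18, and the lowest deletion mean, -0.28 ± 0.24 (SD, n = 3), without overlap of the strains. The permeases TAT2 for tryptophan and LYP1 for lysine had means between -0.11 and 0.17 in both strains. The flavodoxin-like proteins of the furrow ranged from 0.17 (PST2) to 0.57 (YCP4) in wild type and from -0.12 (RFS1) to 0.51 (PST2) in the deletion strain.

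Among 3 distant relatives of SUR7, RIM9, a membrane protein of the pH-sensing Rim101 pathway, read 1.84, 1.65 and -0.48 in wild type and 7.45, 2.99 and 1.25 in the deletion strain. These deletion values were far apart, and their mean of 3.90 ± 3.20 (SD, n = 3) did not pass (limma adjusted p = 0.0856). TOS7 had the lowest means of the 3, -0.06 in wild type and 0.11 in the deletion strain, and DCV1 read 1.73 and 0.54 on the 2 deletion arrays with a value.

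**Figure D4:**
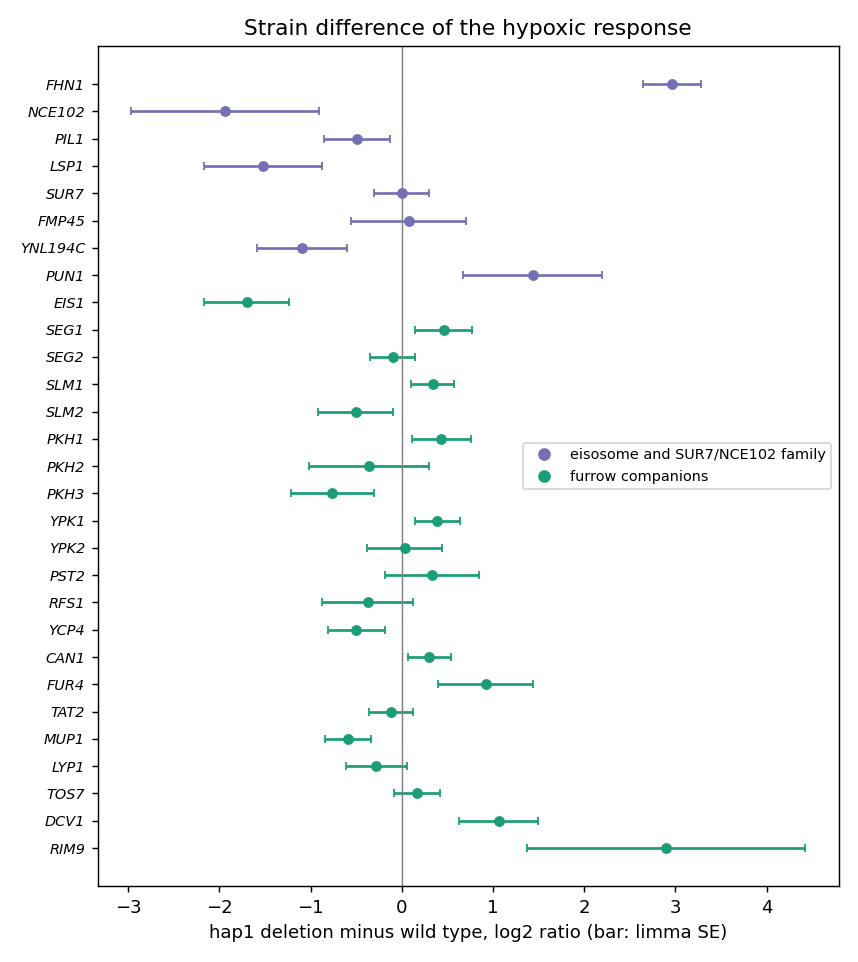
Difference between the strain means of the log2 ratio, hap1 deletion minus wild type (x axis), for the 8 furrow genes (purple) and 21 companion genes (green). Points are fitted differences and bars are limma's moderated standard error on each side. FHN1 lies at 2.97 with a standard error of 0.32, NCE102 at -1.94 with 1.03, and RIM9 at 2.90 with 1.52.

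Next, the genes whose 6 values came nearest to those of FHN1 and NCE102 were listed by root mean square difference over the 6 arrays, among 5300 other genes with all 6 values. For FHN1 these were PAU21 (0.82), PAU22 (0.82), PAU8 (0.86), URA3 (0.89) and PBI1 (0.93), with Pearson r over the same 6 arrays from 0.813 to 0.909. The PAU genes encode near-identical seripauperins of the cell wall, so their spots may share signal. URA3, the decarboxylase of pyrimidine synthesis, read 0.92, 2.40 and 1.26 in wild type and 5.82, 4.69 and 4.17 in the deletion strain. All 5 of these genes were above 0 on every array and had higher means in the deletion strain than in wild type. This follows largely from picking them by nearness to the values of FHN1.

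For NCE102 the nearest 5 were YRO2 (0.50), LSP1 (0.62), MRH1 (0.76), GPT2 (0.79) and NCA3 (0.82), with r from 0.886 to 0.982. LSP1, a furrow gene itself, was thus the second nearest of 5300. YRO2 and MRH1 are related to each other and encode plasma membrane proteins of the Hsp30 family. YRO2 read 3.21, -0.71 and 0.40 in wild type and -1.44, -0.44 and 0.99 in the deletion strain, the highest on wild-type replicate 1 and the lowest on deletion replicate 1, as for NCE102. GPT2 encodes an acyltransferase of glycerolipid synthesis. These correlations belong to genes picked by nearness on the same 6 arrays, which fall in 2 strains. The genes also share each array's cultures, so the correlations are descriptions only.

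**Figure D5:**
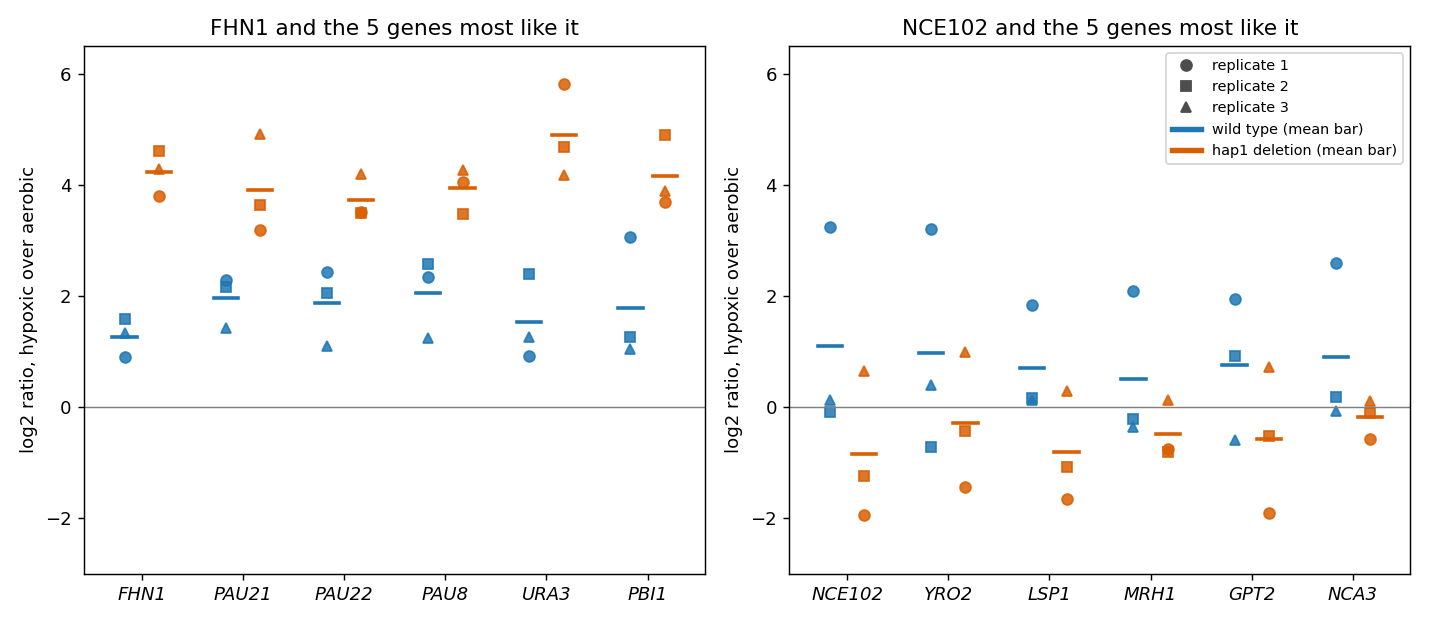
Log2 ratio of hypoxic over aerobic RNA (y axis) for FHN1 and its 5 nearest genes (left) and for NCE102 and its 5 nearest genes (right). Points are single arrays with a marker shape per replicate, blue for wild type and orange for the hap1 deletion, and bars are strain means. The genes near FHN1 stand above 0 on every array and higher in the deletion strain, and those near NCE102 share a high point on wild-type replicate 1. Both sets were picked by nearness to these same values.

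Genes next to the pair on the chromosome were looked up after the values were seen. FHN1 is on chromosome VII, beside the divergently transcribed YGR130C, which itself encodes an eisosome component. YGR130C read 1.22, 0.52 and 0.77 in wild type and -1.31, -0.35 and 0.52 in the deletion strain. Its ratio was thus not high in the deletion strain, where that of FHN1 was. On the other side PHB1, a prohibitin, had means of 0.09 ± 0.12 and -0.43 ± 0.65 (SD, n = 3 each). The divergent neighbour of NCE102 on chromosome XVI, YPR148C, read 0.64, -0.17 and 0.48 in wild type and -0.21, -0.03 and 0.23 in the deletion strain. SUE1, which flanks NCE102 on the other side, read -0.875, -0.83 and -2.18 in wild type. On the 2 deletion arrays with a value, SUE1 read 0.18 and 0.89. Of the 16 genes that flank the 8 furrow genes in the table, 15 were tested and none passed limma's test in wild type (2 had an unadjusted p under 0.05), in the deletion strain (0 under 0.05) or for the difference (2 under 0.05). Over all genes 4.24%, 4.32% and 0.354% passed, and 24.1%, 24.7% and 7.97% had an unadjusted p under 0.05.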

How the data were processed

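The authors hybridised aerobic against hypoxic poly(T)-primed RNA and read spots with GenePix 5.0, per the labels. The sources used here do not give background correction, filters or normalization. The deposited values were log10 ratios, aerobic over hypoxic per the titles of the labels. Base 10 was read from the values: 326 of 36476 were exact ratios of whole numbers (denominator up to 30, relative tolerance 7e-08) with base 10, against 3 with base 2. Swapped dyes (replicate 2) had already been turned, since those arrays correlated with their strain at 0.454 to 0.575. Values were converted to log2, hypoxic over aerobic.

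Strain means and their difference were fitted across all genes with limma 3.58.1 in R 4.3.3 (lmFit, eBayes, two-sided, Benjamini-Hochberg, threshold 0.05), with a residual spread shared by both strains, for 6208 genes with at least 2 values in each. Only 3 arrays a strain limit the precision. Array medians, spread, dye, replicate block, complete genes, strains alone, prior and leaving out each array were the alternatives.

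Names came from the RefSeq gene table of assembly R64 for 5707 of 6282 rows. No source used here names the genome build of the array, and coordinates are left out; no sequences or promoter motifs were analysed here. The members and gene lists were chosen with earlier results of these data known. The text names all 8 members, each companion list's highest and lowest genes and any that passed, and the 5 genes nearest to FHN1 and NCE102. Up to 3 genes of each other list were planned, and all 6 direction markers are named. CAN1, LYP1, SEG1, SEG2, PKH2, PKH3, YPK1, SLM1, SLM2, TAT2, DCV1 and the flanking genes were added after their values were seen. Lists of general stress, sporulation, mating type and direction marker genes were read alongside.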

Additional observations from a re-analysis of the deposited data

Results flagged for a closer look

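FHN1 differed between the strains: its mean log2 ratio of hypoxic over aerobic RNA was 2.97 higher in the hap1 deletion than in wild type. The ratio was higher on 3 of 3 deletion arrays than on any wild-type array. The difference passed limma's test over all genes in the main fit, but the call held in only 4 of 12 alternative settings. The gene was chosen with these values in view, so the pass is a description and supports nothing further. EIS1 moved up on every wild-type array and down on every deletion array, a difference of -1.70 that did not pass (limma adjusted p = 0.382). MUP1 did the same with a smaller difference of -0.59 (limma adjusted p = 0.638).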

How the results depend on the processing

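Counts over all genes were unstable. Against 263 calls in wild type there were 42 with a dye term, 2 with the replicate block, 2 with the strain fitted alone, and 2 to 343 when single arrays were left out. Against 268 in the deletion strain there were 121, 65 and 84, and 30 to 237 when single arrays were left out. Against 22 for the strain difference there were 3 with equal spread, 7 with a dye term, 0 with the replicate block, and 2 to 16 when single arrays were left out. Among the 8 furrow genes, the 1 call in wild type (FHN1) became 0 with a dye term, with the replicate block and with the strain fitted alone, and was 0 to 1 when single arrays were left out. The 1 call for the strain difference became 0 with equal spread and with the replicate block, and was 0 when any array was left out. FHN1 minus NCE102 in wild type changed sign and ran from -0.57 to 1.44 when single arrays were left out. The causes were not tested. Same-numbered arrays of the 2 strains shared the number and its dye orientation, and no label ties them to a common day or batch. Their deviations correlated at -0.0331, 0.0585 and 0.134, and 3 of 6 arrays correlated best with their own number. Of 1090 values of single genes under alternatives, 1029 kept direction and side of the threshold, 16 lost the call (all FHN1), 45 uncalled values changed sign, and none reversed a call. The spot brightness was not analysed here, so dim spots could not be set apart.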

Other observations

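Lists for other cell states gave few calls. Of 6 genes specific to mating type a, MFA2, an a-factor gene, fell in the deletion strain (-1.20 ± 0.36, SD, n = 3, limma adjusted p = 0.0460), beside 4.32% of all genes called there, and none passed in wild type or for the difference between strains. An unadjusted p under 0.05 was reached by 1 of the 6 in wild type, 2 in the deletion strain and 4 for the difference (median difference -1.22), beside 24.1%, 24.7% and 7.97% of all genes. Medians of these 6 by array were -0.30, 1.04 and 0.47 in wild type and -0.69, -0.75 and -1.13 in the deletion strain. Of 4 genes specific to mating type alpha and 10 sporulation genes none passed limma's test in either strain (1 in each list and strain had an unadjusted p under 0.05). A mating type or ploidy shared by the aerobic and hypoxic cultures cannot be seen in these ratios. Of 6 direction markers, HEM13 and TIR1 rose and ANB1, which has a near-identical copy, fell in wild type, and HEM13 rose in the deletion strain.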
